A study of Arabidopsis thaliana with 12 samples.

Results

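Photorespiratory stress was compared with normal growth in pakerine-treated seedlings of the catalase mutant cat2-2 of Arabidopsis thaliana. The members were chosen by library title: 3 libraries of the group Stress + Pakerine were set against 3 libraries of the group Pakerine, which makes 6 of the 12 libraries of the series, and all 21882 genes of the deposited table were examined. All 12 libraries were made from cat2-2, a T-DNA insertion line in CATALASE2, so no wild type enters any comparison. Seedlings grew in liquid ½ Murashige and Skoog medium, which holds sucrose in the study's recipe, in multi-well plates, 5 plants to a well. They grew for 7 days under 16 h of light a day. The medium was then replaced by medium with 10 µM pakerine, a m-sulfamoyl benzamide dissolved in DMSO. Pakerine plants were harvested 4 days later in the same light regime. Stress + Pakerine plants spent 2 further days in plates sealed with Parafilm under continuous light of 100 µmol m-2 s-1, which limits gas exchange and promotes photorespiration. The stressed plants were therefore also 2 days older, had no dark period and had been in pakerine for longer, and these differences cannot be told apart from the limited gas exchange. The time of day of each harvest is not given in the sources used here. The other 6 libraries, DMSO and Stress, are the mock-treated plants under the same growth regimes and serve here only as a reference.

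During photorespiration, Rubisco fixes oxygen in place of carbon dioxide, and the recycling of the product in the peroxisome releases H2O2, which catalase removes. CAT2 is the main leaf catalase for this H2O2, and a plant without it runs into oxidative signalling and lesions when photorespiration is promoted. Salicylic acid (SA) and jasmonic acid (JA) are hormones of defence against pathogens and wounding, and the SA pathway is known to take part in the lesions of cat2 plants.

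The RNA came from leaf material and was read as single 75-base reads. The deposited table holds the mean of each group in CPM, the counts of a gene scaled to the library's size. For 8609 genes with low levels the reads of every single library could be recovered from these means, and these genes are called tested genes below, because they have library values, a spread and a limma test. The other 13273 genes, 60.7% of the table, are mostly the more abundant ones. For them only the authors' means are given, with no error. The Pakerine libraries held 33512708, 32135080 and 29012117 counted reads and the Stress + Pakerine libraries 32644275, 32142169 and 29558344. The libraries are numbered in that order in what follows, which is not the replicate number of the labels. A mean of 1 CPM in Pakerine rests on 95 reads, with a counting error of 10.3%, and a mean of 10 CPM on 947 reads, with a counting error of 3.25%. Between libraries the median coefficient of variation of genes at 5 to 10 CPM was 9.5% in Pakerine and 10.3% in Stress + Pakerine. The study's methods describe the libraries of a group as biological replicates, but neither they nor the labels say how plants were divided among them, and the p-values measure the spread between these libraries. In such bulk samples, fewer cells of a type and less RNA per cell cannot be told apart.

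CAT2 itself had a mean of 37.2 CPM in the unstressed and 108 CPM in the stressed pakerine-treated plants, and of 19.5 and 76.1 CPM in the mock-treated groups DMSO and Stress. The transcript was thus counted in the mutant and was 2.90 times as high under stress, and since no wild type was sequenced these values do not check the mutation. CAT3 was at 3182 and 3180 CPM and CAT1 at 87.9 and 98.8 CPM in Pakerine and Stress + Pakerine. AIM1 and MFP2, enzymes of peroxisomal beta-oxidation that the study names as candidate targets of pakerine, were at 229 and 223 CPM and at 121 and 154 CPM. Of the 19 genes of peroxisomal beta-oxidation and PEX11, none differed 2-fold in the authors' means, and the median log2 difference was 0.05.

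More genes were higher than lower after stress. On the scale log2(CPM + 0.5), which is used for every log2 difference here and which understates the change of low genes, 833 of 21882 genes (3.81%) were at least 2-fold higher in the authors' means and 194 (0.887%) at least 2-fold lower. Past 4-fold there were 181 higher and 8 lower genes, and past 8-fold 41 higher and 1 lower. The median over all genes was -0.03. Among the 8609 tested genes, 362 (4.2%) were called higher and 55 (0.639%) lower at a limma adjusted p of at most 0.01 and a 2-fold difference, and at an adjusted p of at most 0.05 the counts were 1081 that rose (12.6%) and 650 that fell (7.55%). The words rose and fell are used below only for tested genes past an adjusted p of 0.05. Counts of list members that rose or fell stand against the 12.6% and 7.55% of all tested genes. Those at least 2-fold higher or lower in the means stand against the 3.81% and 0.887% of all genes. In 1466 tested genes (17%) all Stress + Pakerine libraries lay above all Pakerine libraries and in 1667 (19.4%) below them. These counts use CPM without the TMM scaling of the limma test, so they cannot be set directly against the numbers that rose and fell. Of the 361 tested genes whose means were 2-fold higher, 359 passed an adjusted p of 0.05, and of the 63 with means 2-fold lower, all 63 did.

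**Figure D1:**
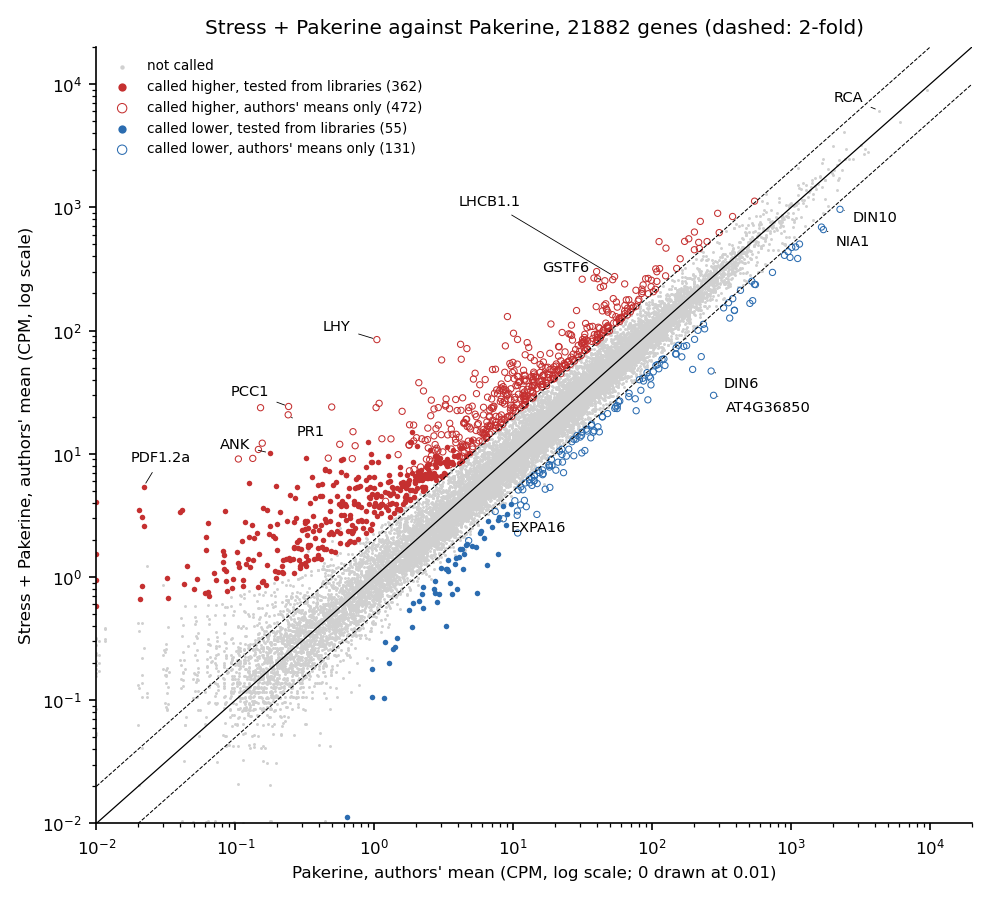
Authors' mean CPM of every gene in Pakerine (x axis) and Stress + Pakerine (y axis), both on log scales, with equality as a solid line and 2-fold differences dashed. Filled points are called from library values and open points from the means alone, and the 362 + 472 red genes above the upper dashed line outnumber the 55 + 131 blue genes below the lower one.

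Genes of SA synthesis and SA response had higher means after stress. All 12 genes of SA synthesis and its regulators had a higher mean after stress, 7 of them at least 2-fold, with a median log2 difference of 1.45, and 2 of the 3 tested members rose. ICS1, the isochorismate synthase that makes the SA precursor, had a mean of 8.46 CPM in Pakerine (libraries 9.46, 8.71 and 7.2) and 35.0 CPM in Stress + Pakerine. PBS3, which conjugates isochorismate to glutamate, went from a mean of 1.58 to 22.1 CPM, and the mean of EDS5, the chloroplast exporter of the precursor, was 3.13 times as high. The transcription factors that switch on ICS1, SARD1 and CBP60g, had means of 3.25 and 25 CPM and of 8.39 and 26.0 CPM. The acyltransferase gene EPS1, which acts after PBS3, rose from 3.01, 3.42 and 3.24 to 5.58, 4.6 and 4.63 CPM, a log2 difference of 0.58 ± 0.14 (SE; adjusted p = 0.00485). Its library values did not overlap between the groups.

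N-hydroxypipecolate, the mobile signal of systemic immunity, is made by FMO1 from the product of ALD1. FMO1 rose from 0.209, 0.124 and 0.241 CPM to 3.61, 1.31 and 1.29 CPM, a log2 difference of 1.77 ± 0.36 (adjusted p = 0.00175). Library 1 of Stress + Pakerine stood above the other two, and without it the difference was 1.37 (adjusted p = 0.0126). UGT76B1, a glucosyltransferase that inactivates SA and N-hydroxypipecolate, had means of 10.7 and 53.4 CPM. Of the 4 genes of the pathway, 3 were 2-fold higher in the authors' means. Only 2 were tested, and of these FMO1 rose and the other did not pass.

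Of 24 SA response genes, all 24 had a higher mean after stress and 20 were at least 2-fold higher, with a median log2 difference of 1.76. Of the 9 tested members, 8 rose. PR1, the classical secreted marker of SA defence, was at 0.298, 0.249 and 0.172 CPM in the Pakerine libraries and at a mean of 20.7 CPM in Stress + Pakerine. PR2, a beta-1,3-glucanase, was at 0.746, 0.342 and 0.310 CPM and then at 8.61, 9.49 and 9.54 CPM. The groups of PR2 did not overlap. LURP1, a gene named for its late response to an oomycete, went from a mean of 4.63 to 71.3 CPM, and WRKY54 and WRKY70, transcription factors of the SA branch, from 0.564 to 11.9 CPM and from 10.0 to 95 CPM. NIMIN-2, an interactor of the SA receptor protein NPR1, rose from 1.16, 0.716 and 0.724 CPM to 8.85, 5.63 and 9 CPM, a log2 difference of 2.61 ± 0.23 (adjusted p = 4.4e-07). WRKY38 rose from 0.0895, 0.0311 and 0 CPM to 3.92, 2.61 and 3.59 CPM and WRKY51 from 0.209, 0.0934 and 0.172 CPM to 3.98, 3.45 and 3.45 CPM, with adjusted p-values of 9.7e-08 and 1.7e-07. DLO1, an enzyme that hydroxylates SA, rose from 0.328, 0.0934 and 0.241 CPM to 1.16, 1.34 and 1.62 CPM (adjusted p = 0.00011).

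PCC1, named for its control by pathogens and the circadian clock, and its neighbour AT3G22235 had log2 differences of 5.06 and 4.62 in the authors' means. PCC1 was at 0.597, 0.0934 and 0.0345 CPM in Pakerine and at a mean of 24.2 CPM in Stress + Pakerine, and AT3G22235 was at 0.776, 0.498 and 0.207 CPM and then at 23.9 CPM. Of the 75-base stretches of their exons, 25.2% and 77.7% occur elsewhere in the genome. Where the other copies lie was not examined, so reads may be shared with other places and both levels are uncertain. The 250 bases before the annotated starts of both genes are shown because they hold a motif known from SA-responsive promoters, the TGA element TGACG, bound by TGA factors. The W-box core TTGAC, bound by WRKY factors, was searched as well. The sequences are RefSeq TAIR10.1 windows on the strand of the gene, with the TGA element in capitals on either strand (CGTCA is its reverse form).
PCC1 (chr3:7846834-7847083, minus strand): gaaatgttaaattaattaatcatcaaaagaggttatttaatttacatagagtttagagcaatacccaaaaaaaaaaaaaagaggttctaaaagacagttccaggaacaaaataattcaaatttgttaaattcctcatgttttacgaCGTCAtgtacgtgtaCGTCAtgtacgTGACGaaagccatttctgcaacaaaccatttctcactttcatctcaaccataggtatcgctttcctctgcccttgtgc
AT3G22235 (chr3:7855815-7856064, minus strand): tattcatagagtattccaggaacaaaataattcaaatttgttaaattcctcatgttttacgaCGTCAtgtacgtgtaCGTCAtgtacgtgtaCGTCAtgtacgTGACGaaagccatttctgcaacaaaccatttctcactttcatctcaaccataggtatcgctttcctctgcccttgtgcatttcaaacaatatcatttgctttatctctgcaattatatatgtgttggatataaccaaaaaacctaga
The PCC1 window held 3 TGA elements and that of AT3G22235 held 4, in a repeat that both windows share, and neither held a W-box core. A match is a description of the letters and not a bound site.

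Over the whole table, the 300-base RefSeq windows (250 bases before and 50 after the start) of 21730 genes were searched for 7 motifs on both strands. The W-box core was in 64.6% of the 834 called higher genes, in 54.3% of the 186 called lower genes and in 50.9% of all windows, and the TGA element in 29.9%, in 26.3% and in 5104 of the 21730. The 2 motifs overlap in TTGACG, so a site can count for both. The G-box CACGTG was in 12%, 7.53% and 8.49%, the evening element AAAATATCT in 4.2%, 5.91% and 2.95%, and the mitochondrial dysfunction motif in 1.44%, 0.538% and 0.727%. The site II element TGGGC, a motif of growth genes, was in 15.9% of the higher, 25.3% of the lower and 28.6% of all windows, and AACGG, the core of the mitosis-specific activator motif, in 18.7%, 18.8% and 25.9%. These shares are descriptions without a test. Genes were counted as called by the limma rule where tested. Otherwise a 2-fold difference of the authors' means on the scale log2(CPM + 0.5) was used.

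Receptor kinase genes of the cysteine-rich family, membrane proteins linked to reactive oxygen and immunity, were higher in 26 of 30 cases and at least 2-fold higher in 14, with a median log2 difference of 0.86. Of the 15 tested members 10 rose and none fell. CRK12 rose from 4.63, 2.89 and 2.55 CPM to 14.5, 8.4 and 11.1 CPM, a log2 difference of 1.66 ± 0.19 (adjusted p = 6.4e-06). CRK7 rose from 0.179, 0.0311 and 0.0345 CPM to 1.81, 1.59 and 1.52 CPM, and CRK39 from 0.119, 0.0622 and 0.0689 CPM to 1.78, 1.59 and 1.15 CPM. CRK36, which was not tested, was at 1.64, 2.02 and 2.1 CPM in Pakerine and at a mean of 12.7 CPM after stress. FRK1, a receptor kinase gene used as a marker of flagellin perception, was at 3.13, 3.02 and 3.00 CPM and then at a mean of 57.7 CPM. ANK, which encodes an ankyrin protein, was the only tested gene among the 12 called genes with the largest log2 differences at a mean of at least 5 CPM. It rose from 0.298, 0.0934 and 0.138 CPM to 11.3, 7.78 and 11.3 CPM, a log2 difference of 3.95 ± 0.22 (adjusted p = 2.3e-09).

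Camalexin is the indole phytoalexin of Arabidopsis, made from tryptophan. All 17 genes of camalexin and indole glucosinolate synthesis had a higher mean after stress, 8 of them at least 2-fold, and the median log2 difference was 0.92. PAD3, the last enzyme of camalexin synthesis, was at 0.746, 0.809 and 0.551 CPM in Pakerine and at a mean of 15.1 CPM in Stress + Pakerine. CYP71A12 rose from 0.537, 0.187 and 0.241 CPM to 8.39, 8.31 and 10.8 CPM, a log2 difference of 3.56 ± 0.26 (adjusted p = 7.3e-08). Its close relative CYP71A13 rose from 0.0298, 0 and 0.0345 CPM to 0.551, 7.44 and 1.18 CPM, a log2 difference of 2.18 ± 0.45 (adjusted p = 0.00175). Here library 2 of Stress + Pakerine stood apart, and without it the difference was 1.31 (adjusted p = 3.2e-05). CYP83B1 of the indole glucosinolate branch went from a mean of 126 to 466 CPM and TSA1, the alpha chain of tryptophan synthase, from 56.1 to 155 CPM. Aliphatic glucosinolate genes did not share this, with none of 14 at a 2-fold difference and a median of -0.12.

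Sulfur assimilation feeds both glutathione and glucosinolates. Of 15 genes of sulfate uptake and sulfur deficiency, 14 were higher and 7 at least 2-fold higher (median 0.89), and 4 of the 5 tested members rose. GGCT2;1, which breaks down glutathione in the cytosol, rose from 0.537, 0.342 and 0.379 CPM to 6.49, 3.92 and 6.66 CPM, a log2 difference of 2.73 ± 0.22 (adjusted p = 1.1e-07). SDI1, a repressor of glucosinolate synthesis under sulfur deficiency, rose from 0.836, 1.12 and 1.03 CPM to 7.51, 4.70 and 7.07 CPM. BGLU28, a glucosidase induced by low sulfur, rose from 0.298, 0.280 and 0.276 CPM to 2.08, 1.93 and 2.00 CPM. In these members no library of one group reached the range of the other. APR2 and APR3, reductases of sulfate assimilation, had means of 108 and 300 CPM and of 159 and 382 CPM.

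Glutathione transferases of the tau and phi classes, which conjugate and reduce electrophiles, were higher in 29 of 36 cases, with 13 at least 2-fold higher and 1 lower. The median log2 difference was 0.64, and 6 of the 15 tested members rose while 1 fell. GSTF6 and GSTF7, abundant phi members, went from means of 45.6 to 253 CPM and of 44.6 to 229 CPM. GSTU11 rose from 0.358, 0.249 and 0.345 CPM to 2.88, 3.2 and 2.1 CPM (log2 difference 1.97 ± 0.23, adjusted p = 6.2e-06), and GSTU12 from 0.119, 0.280 and 0.103 CPM to 0.827, 1.49 and 1.42 CPM. GSTU3 rose from 0, 0 and 0.0689 CPM to 0.184, 2.89 and 0.575 CPM (adjusted p = 0.0104), and 1.36 on the log2 scale became 0.69 without library 2 of Stress + Pakerine (adjusted p = 0.00559). GSTU20 went the other way, from a mean of 154 to 75.9 CPM. GSTF14 fell from 3.97, 3.3 and 2.34 CPM to 0.919, 2.12 and 1.52 CPM (adjusted p = 0.0152), a call that was lost without Pakerine library 1, Pakerine library 2 or Stress + Pakerine library 1, with adjusted p-values of 0.0758, 0.0508 and 0.0896.

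Of 18 marker genes of reactive oxygen and mitochondrial retrograde signalling, 17 were higher and 10 at least 2-fold higher, with a median of 1.16. UGT74E2, a glucosyltransferase of an auxin precursor and a known H2O2-responsive gene, went from a mean of 10.7 to 84.6 CPM. ZAT12, a zinc finger protein of oxidative and high-light stress, was at 3.46, 5.32 and 5.07 CPM in Pakerine and at a mean of 19.1 CPM after stress, and AOX1A, the alternative oxidase of mitochondria, went from 41.0 to 106 CPM. OXI1, a protein kinase activated by H2O2, rose from 1.37, 1.43 and 1.24 CPM to 4.59, 3.86 and 3.55 CPM, a log2 difference of 1.31 ± 0.16 (adjusted p = 1.4e-05). AT1G57630, a gene with a TIR domain, rose from 0.985, 0.871 and 1.03 CPM to 9.16, 7.12 and 9.30 CPM, a log2 difference of 2.63 ± 0.18 (adjusted p = 2.4e-08). Its Pakerine libraries lay within a narrow range far below the others.

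Of 28 genes of catalases, the ascorbate-glutathione cycle and superoxide dismutases, 4 were at least 2-fold higher (median 0.05), and neither of the 2 tested members passed. Beside CAT2 these were MDAR3, a monodehydroascorbate reductase, with means of 6.82 and 16.7 CPM, the glutathione reductase GR1 with 71.6 and 150 CPM, and DHAR2, a dehydroascorbate reductase, with 39.9 and 82.7 CPM. The cytosolic ascorbate peroxidase APX1 went from a mean of 1984 to 3141 CPM, one of the 6 largest gains in mean CPM. Of 27 photorespiration genes 15 were higher and 12 lower, with a median of 0.12. GLDP1, the P-protein of glycine decarboxylase, went from 1127 to 2082 CPM. AT4G22840, the plastid glycolate carrier BASS6, rose from 3.16, 3.49 and 2.93 CPM to 7.14, 6.44 and 7.41 CPM (adjusted p = 3.6e-06). It was the only photorespiration gene past 2-fold and 1 of 3 that were tested. For PGLP1, which starts the pathway, 100% of the 75-base stretches occur elsewhere in the genome and its count is not reliable.

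Class III peroxidases are secreted enzymes that make or use H2O2 in the cell wall. Their median was 0.05 over 46 genes in the table, but 11 were at least 2-fold higher and none lower, and 6 of 16 tested members rose. PER59 rose from 1.82, 1.4 and 2.21 CPM to 10.8, 9.77 and 17.1 CPM, a log2 difference of 2.50 ± 0.26 (adjusted p = 1.7e-06). PER10 rose from 0.895, 0.529 and 0.931 CPM to 3.61, 5.79 and 6.87 CPM, a log2 difference of 2.19 ± 0.26 (adjusted p = 7.6e-06). The groups of both genes were apart, with a wider spread after stress. PER4 rose from 0.298, 0.187 and 0.345 CPM to 4.50, 5.72 and 5.79 CPM and PRX52 from 0.0298, 0.156 and 0.0689 CPM to 4.14, 2.27 and 3.86 CPM, with adjusted p-values of 8.8e-08 and 1.1e-06. AT5G64120, the most abundant called member, went from a mean of 112 to 527 CPM.

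All 12 JA synthesis genes in the table had a higher mean after stress, 2 were at least 2-fold higher and the median was 0.50. LOX4, a lipoxygenase of the first step, rose from 2.09, 2.18 and 2.76 CPM to 8.00, 8.90 and 6.43 CPM, a log2 difference of 1.57 ± 0.22 (adjusted p = 4.9e-05). AOC3, an allene oxide cyclase, rose from 4.57, 4.29 and 3.69 CPM to 6.49, 8.03 and 8.59 CPM (adjusted p = 0.00286). In the list of 24 JA response genes 12 were at least 2-fold higher, with a median of 1.07, and 10 of the 14 tested members rose while 1 fell.

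The defensin genes, which JA and ethylene induce together, had some of the largest differences. PDF1.2a rose from 0, 0.0311 and 0.0345 CPM to 4.17, 6 and 6.02 CPM, a log2 difference of 3.44 ± 0.19 (adjusted p = 2.3e-09). PDF1.3 rose from 0.239, 0.280 and 0.0689 CPM to 5.54, 3.83 and 7.07 CPM (3.07 ± 0.23, adjusted p = 7.5e-08) and PDF1.2c from 0.0298, 0.0311 and 0 CPM to 2.11, 3.95 and 4.50 CPM (adjusted p = 1.2e-06). In Pakerine these genes were near the level of single reads, so the fitted differences depend on the pseudocount. ERF1, an ethylene response factor upstream of the defensins, rose from 0.865, 0.467 and 0.379 CPM to 2.02, 2.96 and 1.86 CPM (adjusted p = 4.5e-05). TAT3, a tyrosine aminotransferase, rose from 0.239, 0.0311 and 0.103 CPM to 6.80, 6.38 and 4.3 CPM (3.31 ± 0.33, adjusted p = 1.1e-06), and the vegetative storage protein gene VSP2 from 2.27, 1.77 and 1.86 CPM to 4.2, 7.06 and 8.36 CPM (1.5 ± 0.24, adjusted p = 0.00022). JAZ5, a repressor of JA signalling, rose from 0.448, 0.342 and 0.448 CPM to 1.99, 3.24 and 2.71 CPM. CYP94B3, which inactivates the hormone, fell from 1.13, 1.18 and 1.79 CPM to 0.643, 0.622 and 0.913 CPM (adjusted p = 0.0398), a call that was lost without any one of Pakerine library 2, Pakerine library 3, Stress + Pakerine library 1 or Stress + Pakerine library 2, with adjusted p-values from 0.0505 to 0.193.

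Clock genes included LHY, which had the largest log2 difference of the called genes with a mean of at least 5 CPM (5.78). LHY and CCA1 are MYB factors of the morning phase that repress evening genes. LHY was at 1.16, 1.28 and 0.689 CPM in the Pakerine libraries and at a mean of 84.4 CPM in Stress + Pakerine, and CCA1 at 1.4, 0.778 and 1.07 CPM and then at 25.6 CPM. RVE8, an activator related to both, was at 2.54, 1.84 and 1.90 CPM and then at 37.7 CPM, and LNK2, its co-activator, at 12.5, 11.7 and 12.3 CPM and then at 63.5 CPM. PRR9, the earliest of the pseudo-response regulators in the day, rose from 0.477, 0.405 and 0.551 CPM to 3.92, 3.58 and 2.84 CPM, a log2 difference of 2.01 ± 0.18 (adjusted p = 4.0e-07), with 41.2% of its 75-base stretches found elsewhere. These are morning genes, and the lower ones were COR27 (82.8 to 32.7 CPM), AT4G33980 (57.1 to 26.5 CPM) and BOA (27.2 to 13.1 CPM), which belong to other phases. Over the 23 clock genes 6 were at least 2-fold higher and 3 lower, with a median of 0.23. Since the light regime differed between the groups and the harvest times are unknown, the part of clock phase in these values was not tested and cannot be told apart from stress.

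The windows before LHY and CCA1 are shown because of the G-box CACGTG, a motif of light-regulated promoters, which is in capitals with any W-box core.
LHY (chr1:37872-38121, minus strand): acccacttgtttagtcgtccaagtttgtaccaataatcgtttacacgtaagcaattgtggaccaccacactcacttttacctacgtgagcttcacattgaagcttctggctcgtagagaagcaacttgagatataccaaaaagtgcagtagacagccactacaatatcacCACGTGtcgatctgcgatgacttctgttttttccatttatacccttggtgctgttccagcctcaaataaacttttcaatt
CCA1 (chr2:19245341-19245590, plus strand): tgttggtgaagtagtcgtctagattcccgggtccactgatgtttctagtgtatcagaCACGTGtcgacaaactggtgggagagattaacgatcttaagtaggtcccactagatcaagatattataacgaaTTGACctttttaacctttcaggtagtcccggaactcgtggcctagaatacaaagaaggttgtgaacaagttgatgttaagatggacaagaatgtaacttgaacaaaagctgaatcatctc
Each window held 1 G-box, and that of CCA1 also 1 W-box core.

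The early light-inducible proteins, pigment-binding proteins of the stressed chloroplast, were higher as well. ELIP1 rose from 0.269, 0.591 and 0.310 CPM to 5.58, 4.26 and 6.87 CPM, a log2 difference of 2.76 ± 0.18 (adjusted p = 1.7e-08), and ELIP2 was at 1.55, 0.778 and 0.758 CPM in Pakerine and at a mean of 23.7 CPM after stress. ZEP, zeaxanthin epoxidase of the xanthophyll cycle, went from 65.1 to 177 CPM. The light-harvesting antenna split: LHCB1.1 went from 53.6 to 274 CPM and LHCB2.1 from 39.5 to 156 CPM, whereas LHCB1.4 went from 949 to 436 CPM and LHCB1.3, the most abundant of them, from 6079 to 4952 CPM. The median of the 20 antenna genes was 0.05 and their summed mean went from 16578 to 14957 CPM. Of the 75-base stretches of LHCB1.1 and LHCB2.1, 10.4% and 16.2% are found elsewhere, so some of their reads may be shared with other copies. Rubisco and Calvin cycle genes moved little, with none of 21 at 2-fold and a summed mean of 36312 and 37756 CPM. RCA, which activates Rubisco, had the largest gain in mean CPM of all genes, from 4298 to 6100 CPM.

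Most genes of carbon starvation and of nitrate uptake and reduction had lower means. Of 21 genes of carbon starvation and branched-chain amino acid breakdown, 18 were lower and 8 at least 2-fold lower, with a median of -0.87, the lowest of the 33 lists. DIN6, the asparagine synthetase that is switched on in the dark, went from a mean of 265 to 46.9 CPM, and DIN10, a raffinose synthase family gene, from 2244 to 963 CPM. The subunits of leucine breakdown were lower together, with MCCA at 225 and 61.4 CPM, MCCB at 111 and 48.9 CPM and DIN3 at 97.9 and 36.2 CPM. AT4G36850, annotated as a PQ-loop repeat protein, had the most negative log2 difference of these called genes (-3.19), with a mean of 276 CPM in Pakerine and 29.8 CPM after stress. NIA1, a nitrate reductase, went from 1705 to 659 CPM and UPM1, which makes the sirohaem of nitrite reductase, from 234 to 112 CPM, while over the 12 nitrate genes 10 were lower and the median was -0.49. Almost none of these abundant genes could be tested. As the Pakerine plants had a dark period and the stressed plants had none, the part of the light regime was not tested.

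The DIN6 window is shown as the counterpart among the lower genes. It holds 1 G-box, 2 TGA elements and 1 W-box core that overlaps one of them, in capitals, so the same motifs also stand before a gene with a lower level.
DIN6 (chr3:17441432-17441681, minus strand): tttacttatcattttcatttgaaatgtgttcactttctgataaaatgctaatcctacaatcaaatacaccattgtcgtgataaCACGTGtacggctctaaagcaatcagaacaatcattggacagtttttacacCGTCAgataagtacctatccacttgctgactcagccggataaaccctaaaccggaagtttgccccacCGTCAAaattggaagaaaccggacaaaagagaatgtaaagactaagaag

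Starch genes had no common direction (median 0.09 over 23 genes), but 5 were at least 2-fold higher. GBSS1, the starch synthase of amylose, was at 2.63, 1.80 and 2.34 CPM in Pakerine and at a mean of 32.3 CPM after stress. GPT2, the plastid glucose 6-phosphate translocator, rose from 0.209, 0.249 and 0.172 CPM to 2.82, 4.17 and 3.18 CPM, a log2 difference of 2.43 ± 0.19 (adjusted p = 9.5e-08). Among senescence genes SAG13 was at 0.149, 0.187 and 0.103 CPM and then at a mean of 10.8 CPM, and RNS1, a ribonuclease, rose from 1.49, 1.09 and 0.724 CPM to 6.31, 4.01 and 6.63 CPM (adjusted p = 2.3e-06). SEN1, a gene of dark-induced senescence, was lower, at 553 and 236 CPM. Over the 21 genes of senescence and chlorophyll breakdown in the table, 16 were higher and 5 lower, the median was 0.42, and 3 of the 5 tested members rose and none fell.

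**Figure D2:**
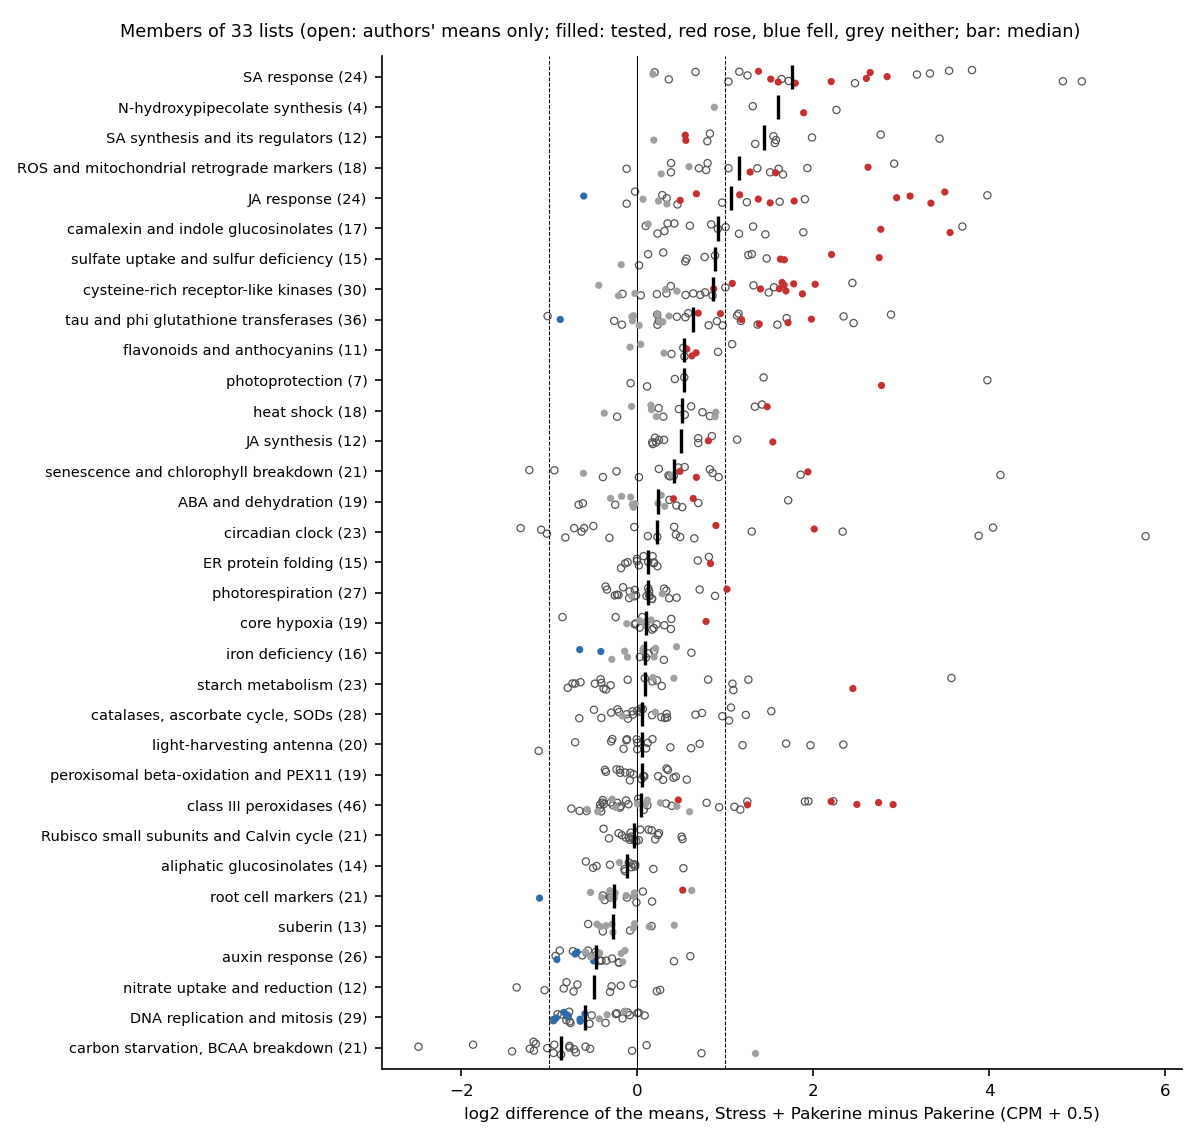
Log2 difference of the authors' means (x axis, CPM + 0.5) for every gene in the table of 33 lists (y axis, number in the table in brackets), with the median as a bar and 2-fold differences dashed. The medians run from 1.76 for SA response to -0.87 for carbon starvation, and most open points past the dashed lines are abundant genes without a test.

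Auxin response and cell division genes were lower. In 26 auxin response genes 24 had a lower mean, the median was -0.47 and none reached 2-fold. Of the 11 tested members 5 fell, against 7.55% of all tested genes. IAA19, an Aux/IAA repressor, fell from 7.79, 5.97 and 5.69 CPM to 3.58, 4.14 and 3.82 CPM, a log2 difference of -0.63 ± 0.15 (adjusted p = 0.00578). LBD29, a factor of lateral root formation, fell from 1.52, 1.49 and 1.31 CPM to 0.827, 0.498 and 0.744 CPM (adjusted p = 0.00505). The number that fell was 3 without Pakerine library 2 or Stress + Pakerine library 1, and 2 without Pakerine library 1 or Stress + Pakerine library 3, so it depends on single libraries.

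Of 29 genes of DNA replication and mitosis 26 were lower, with a median of -0.60, and 7 of the 10 tested members fell while none rose. The mitotic cyclin gene CYCB1;3 fell from 6.39, 5.35 and 4.86 CPM to 2.27, 3.08 and 2.54 CPM, a log2 difference of -0.90 ± 0.17 (adjusted p = 0.00094). CYCB1;4 fell from 9.85, 7.56 and 6.89 CPM to 3.74, 5.16 and 4.09 CPM, and CYCB2;2 from 8.09, 6.66 and 6.24 CPM to 2.39, 3.83 and 4.16 CPM, with adjusted p-values of 0.001 and 0.00146. The tested members summed to 74.5, 64.6 and 56.7 CPM in Pakerine and to 32.0, 46.7 and 46.1 CPM in Stress + Pakerine. The 2 ranges did not overlap, library 1 of Stress + Pakerine was the lowest, and without it, or without Pakerine library 1, 4 members fell in place of 7. The difference in age of the plants moves with this result and its part was not tested.

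Root markers were counted in these libraries although the labels give leaf material. Of 21 root cell markers 17 were lower after stress, and their summed mean was 280.1 CPM before and 258.4 CPM after stress. Of 13 tested, 1 rose and 1 fell. These counts are near or under the shares of all tested genes, 12.6% that rose and 7.55% that fell. The tested ones summed to 34.7, 38.7 and 45.6 CPM and to 32.5, 24.1 and 37.9 CPM, so the groups overlapped. CASP5, which builds the Casparian strip of the root endodermis, fell from 2.21, 2.15 and 1.38 CPM to 0.858, 0.280 and 0.710 CPM (adjusted p = 0.00321). None of the 9 tested suberin genes passed, and over all 13 in the table the summed mean was 203.6 CPM and 187.3 CPM. The part of root tissue in the auxin, peroxidase and JA results was not tested.

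**Figure D3:**
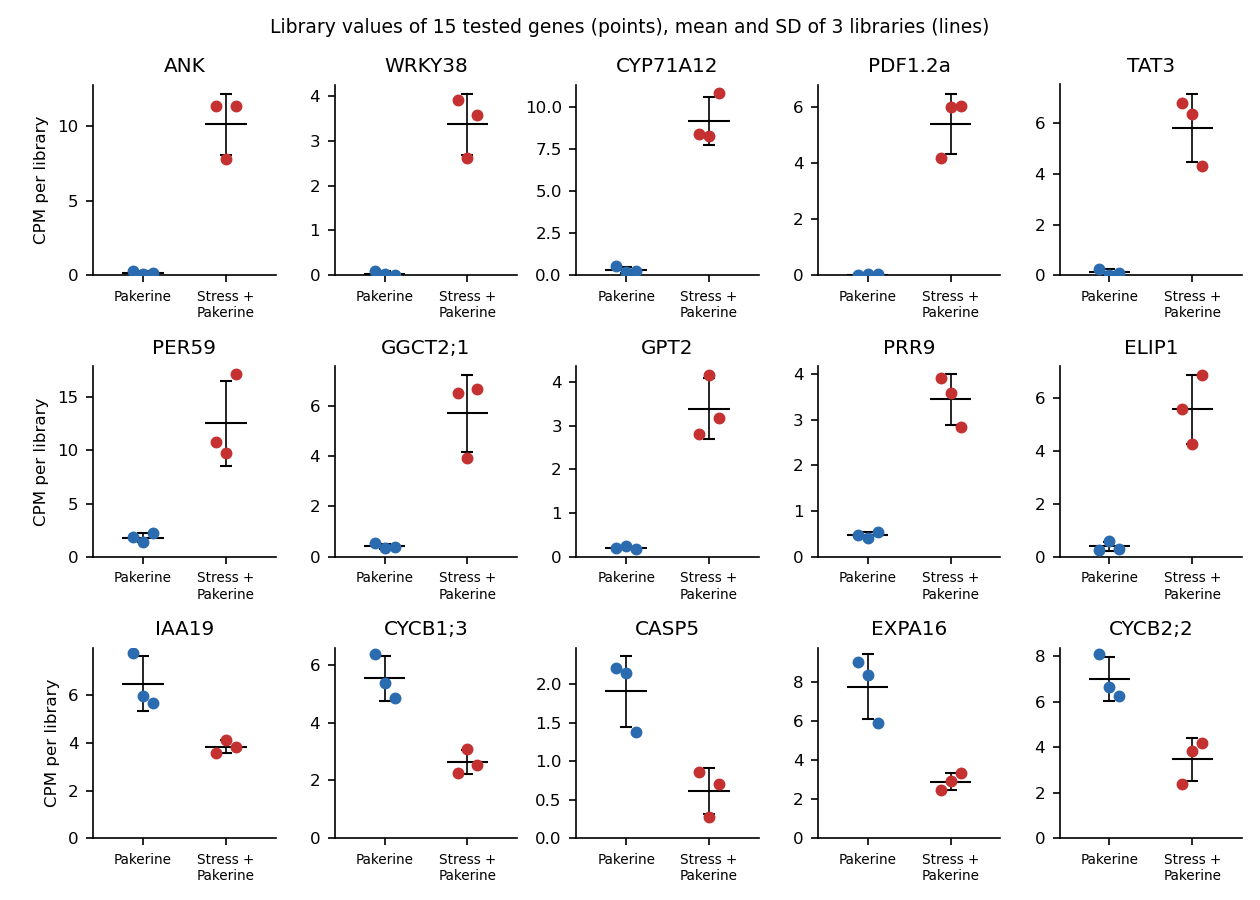
CPM of each library (points) in Pakerine and Stress + Pakerine for 15 tested genes, with the mean and SD of 3 libraries as lines and every y axis from 0. The 15 genes were picked with their values known. In each, the 3 points of one group lie above or below all 3 of the other. For CYP71A12 they lie at 8.39 to 10.8 CPM against 0.187 to 0.537 CPM. Over all tested genes, 17% had all Stress + Pakerine libraries above and 19.4% had them all below.

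Heat shock genes had a median of 0.51, and 3 of 18 were at least 2-fold higher. HSFA2, a heat shock factor that also responds to H2O2, rose from 2.36, 1.90 and 1.96 CPM to 10.7, 3.86 and 5.48 CPM, a log2 difference of 1.4 ± 0.27 (adjusted p = 0.00109) that became 1.02 without library 1 of Stress + Pakerine (adjusted p = 0.00573). It was 1 of 8 tested members and none of the other 7 passed, a share close to the 12.6% of all tested genes that rose. The 8 tested members summed to 20.92, 19.14 and 21.4 CPM in Pakerine and to 42.4, 17.64 and 23.65 CPM in Stress + Pakerine. The groups overlapped, and library 1 of Stress + Pakerine stood above the others. Among ER protein folding genes, the co-chaperone gene ERDJ3A rose from 6.27, 6.22 and 6.48 CPM to 14.2, 9.49 and 11.2 CPM (adjusted p = 0.00101), and the median of the 15 genes was 0.13. In the core hypoxia list, of interest because the plates were sealed, 1 of 7 tested members rose and none of 19 differed 2-fold, with a median of 0.10. That member, SRO5, went from 2.72, 1.80 and 1.65 CPM to 4.35, 3.36 and 3.99 CPM (adjusted p = 0.00672), and 1 of 7 is again near the share of all tested genes. RAB18, a dehydrin gene induced by abscisic acid, was at 1.70, 2.05 and 2.03 CPM and then at 6.92, 7.68 and 7.85 CPM. However, the median of its list was 0.24 and 2 of 11 tested members rose, 1 whenever a library was left out. These counts are near the 12.6% of all tested genes. Flavonoid genes had a median of 0.54, with UGT78D2 at 16.3 and 35.1 CPM. The iron deficiency list had a median of 0.09, and its 2 members that fell, BHLH39 and BHLH100, were under 1 CPM in every library and each lost its call in more than one fit with a library left out. BHLH39 lost it without any one of Pakerine library 2 or 3 or Stress + Pakerine library 2 or 3 (adjusted p from 0.0788 to 0.124), and BHLH100 without Pakerine library 2 or 3 or Stress + Pakerine library 1 or 3 (0.0648 to 0.113).

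The genes of the plastid genome had a median of -0.15, and 4 of 76 tested fell, a smaller share than the 7.55% of all tested genes, and none rose. The genes of the mitochondrial genome had a median of 0.07, with 3 of 34 tested that rose, a smaller share than the 12.6% of all tested genes, and none that fell.

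The mock-treated plants give the same contrast without pakerine. From DMSO to Stress, 747 genes (3.41%) were at least 2-fold higher and 307 (1.4%) lower. Of the genes 2-fold higher, 580 were so in both contrasts, which is 69.6% of those with pakerine and 77.6% of those in mock-treated plants. Of the lower genes 84 were shared, 43.3% and 27.4%. The 2 contrasts share no libraries, and 1 gene was 2-fold higher with pakerine and 2-fold lower in mock-treated plants and 0 the reverse. SA response had a median of 1.76 with pakerine and 1.62 without, SA synthesis 1.45 and 1.31, and cysteine-rich receptor-like kinases 0.86 and 0.85. JA response had 1.07 and 0.39, JA synthesis 0.50 and 0.04, sulfur 0.89 and 0.33, heat shock 0.51 and -0.39 and DNA replication -0.60 and -1.0. These medians have no test of their difference, and in these lists only JAZ5 passed the test for single genes that follows.

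**Figure D4:**
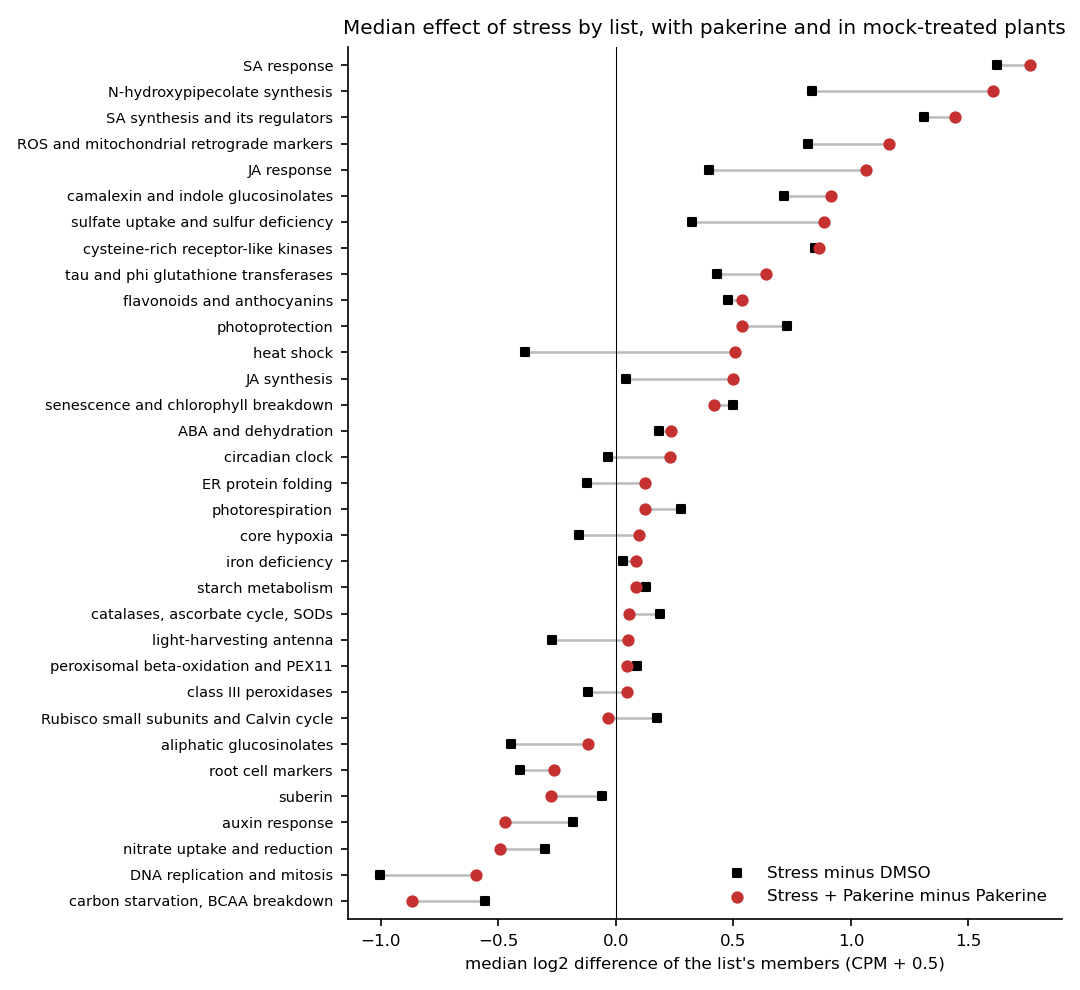
Median log2 difference of each list's members (x axis, authors' means, CPM + 0.5) for Stress + Pakerine minus Pakerine (red circles) and Stress minus DMSO (black squares). The 2 symbols nearly coincide for cysteine-rich receptor-like kinases and lie furthest apart for heat shock, at 0.51 and -0.39. For heat shock the summed CPM of the tested members overlapped between the Pakerine and Stress + Pakerine libraries.

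Whether the effect of stress differed with pakerine was tested as an interaction in the same limma fit. Of 8609 tested genes, 3 (0.0348%) had a larger effect with pakerine at an adjusted p of 0.05 and 0 a smaller one, whereas at an unadjusted p under 0.05 the counts were 386 and 368. PER10 was at 1.15, 1.41 and 1.05 CPM in DMSO and 0.840, 1.61 and 0.526 CPM in Stress, and the effects differed by 2.35 ± 0.37 on the log2 scale (adjusted p = 0.0273). JAZ5 was at 0.688, 0.787 and 0.843 CPM and 0.780, 0.821 and 1.09 CPM in the mock-treated groups, and the difference was 1.55 ± 0.25 (adjusted p = 0.0273). The JAZ5 libraries of Pakerine were all below those of DMSO, and those of Stress + Pakerine were above all others. BBX16, a B-box protein of light signalling, was at 0.721, 0.492 and 0.351 CPM in DMSO, 1.38, 1.15 and 1.12 CPM in Stress, 0.0597, 0.311 and 0.138 CPM in Pakerine and 4.41, 3.02 and 3.04 CPM in Stress + Pakerine. Its difference was 1.70 ± 0.28 (adjusted p = 0.0273). All 3 calls were lost with voom weights (adjusted p = 0.113) and when single libraries were left out, with adjusted p-values up to 0.125 for PER10 and JAZ5 and 0.118 for BBX16.

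Genes that missed the threshold are given for their values. TAT3 was at 0.229, 0.295 and 1.65 CPM in DMSO and 3.03, 1.68 and 1.25 CPM in Stress, and its effects differed by 2.06 ± 0.47 (adjusted p = 0.146). PER59 was at 1.31, 0.689 and 1.05 CPM and 1.89, 3.38 and 1.35 CPM, and differed by 1.6 ± 0.37 (adjusted p = 0.146). LSU3, a gene of sulfur deficiency, was at 0.507, 0.436 and 0.172 CPM in Pakerine and 5.88, 2.36 and 4.77 CPM in Stress + Pakerine, and differed by 1.70 ± 0.33 (adjusted p = 0.0803). On the other side EXPA16, an expansin that loosens cell walls, was at 4.26, 3.54 and 4.67 CPM in DMSO and 3.3, 4.21 and 3.69 CPM in Stress but fell with pakerine from 9.04, 8.37 and 5.89 CPM to 2.45, 2.92 and 3.35 CPM (adjusted p = 1.5e-05), and its effects differed by -1.20 ± 0.22 (adjusted p = 0.0715). For PR1 the means of 0.25 CPM in DMSO and 56.8 CPM in Stress stand beside 0.240 and 20.7 CPM with pakerine, with no test.

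**Figure D5:**
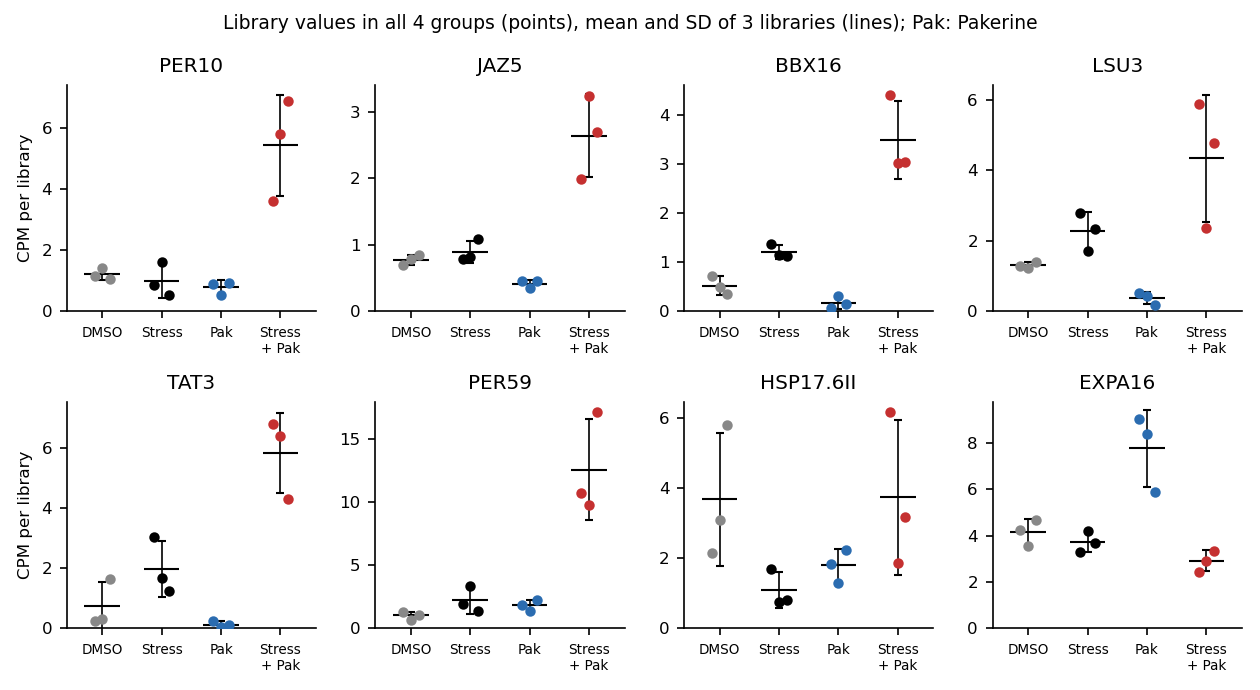
CPM of each library (points) in all 4 groups for 8 genes, with the mean and SD of 3 libraries as lines and every y axis from 0. In PER10 the Stress + Pakerine libraries (3.61 to 6.87 CPM) lie above all others, and in EXPA16 the Pakerine libraries (5.89 to 9.04 CPM) do.

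Genes at the threshold were ranked by the log2 difference of the authors' means, whereas the values in brackets here are from the limma fit. The called genes with the smallest differences of the means were AT1G09932 (1.03), AT3G24460 (1.01) and AT4G14610 (1.01). AT1G09932 went from 3.22, 3.45 and 5.45 CPM to 7.75, 8.49 and 8.86 CPM. Just outside were the untested genes MAKR6, at means of 37.2 and 18.4 CPM, FRO7, at 47.1 and 94.6 CPM, and MEE14, at 614 and 307 CPM.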

How the data were processed

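Per the submitters' processing notes and the study's methods, the authors used CASAVA 1.8 and Trim Galore 0.3.3 for the raw reads, TopHat2 2.1.0 for alignment (TAIR10) and featureCounts of Subread 1.4.6 for counting. The authors kept genes above 0.12 CPM in at least 3 libraries and fitted edgeR with TMM scaling. The deposited values are CPM, averaged by the authors over 3 libraries per group. The other deposited columns hold the authors' fold changes, p-values, false discovery rates and gene classes of their own comparisons and were not used. For 6 libraries, all those titled as Pakerine and all those titled as Stress, the title and the treatment fields name different groups. The conflict thus falls on the unstressed side of the main comparison. The titles were used, and the table's headings name the groups directly.

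Because a mean of 3 libraries is a sum of whole reads over 3 library sizes, the sizes and the reads of each library were solved from the means. Within the search this gave 1 whole-number solution for 8609 genes in all 12 libraries (highest mean 16.6 CPM), including all 2642 genes under 1 CPM in every group. The recovered reads, turned into CPM with TMM-scaled library sizes (trimming 30% and 5%), were tested as log2(CPM + 0.5) with limma 3.58.1 (lmFit and eBayes with trend, R 4.3.3) over all 12 libraries, with Benjamini-Hochberg adjustment over the 8609 genes, and the printed library values are not TMM-scaled. Genes above this range had no test and were called at a 2-fold difference of the means on the scale log2(CPM + 0.5). Scripts were tested on simulated data (Python 3.11.15, pandas 2.3.3).

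The members and lists were chosen with earlier results of these data known. Of 684 listed genes 661 were in the table and 193 were tested. Named genes were the 12 highest and 12 lowest log2 differences among called genes with a mean of at least 5 CPM, the 6 largest gains and losses in CPM, up to 5 members per list and up to 3 against its direction, the catalases, AIM1 and MFP2, the 8 smallest interaction p-values in each direction (mean of at least 1 CPM), genes named by the study's text and 3 genes on each side of the threshold. Further list members, mostly tested ones, were named after their values were seen. Gene names came from the deposited descriptions and RefSeq, which matched 21731 of the IDs. Alternatives were other scaling (none, median of ratios), pseudocounts of 0.1 and 2 CPM, a minimum of 1 CPM, voom weights, the 6 pakerine libraries alone and leaving out each library.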

Additional observations from a re-analysis of the deposited data

Results flagged for a closer look

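In 3 genes the effect of stress with pakerine differed from that in mock-treated plants by the interaction test. All 3 calls were lost with voom weights and in several fits with a single library left out. The difference on the log2 scale was 2.35 for PER10, 1.55 for JAZ5 and 1.70 for BBX16, each with an adjusted p of 0.0273 in limma and with all Stress + Pakerine libraries above the other 9. The test could find such genes only among the 8609 with library values.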

How the results depend on the processing

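No called difference changed direction under the alternatives run. Called higher genes numbered 362, 154 with a pseudocount of 2 CPM and 352 to 372 with single libraries left out. Called lower genes numbered 55, 91 with a pseudocount of 0.1 CPM, 7 with 2 CPM, 100 with voom weights and 43 to 80 with single libraries left out. At an adjusted p of 0.05 the lower genes numbered 650, 803 without scaling and 389 to 622 with a library left out, and the higher ones 1081 and 863 to 972. In the authors' means, 194 lower genes became 313 with a pseudocount of 0.1 CPM and 112 with 2 CPM. List members that fell numbered 17, 11 with a minimum of 1 CPM and 10 to 17 with a library left out, and those that rose 71 and 65 to 69. The interaction gave 3 larger effects, 0 with voom weights and 0 to 8 with a library left out, and 0 to 3 smaller ones. At a 4-fold call the W-box core was in 68.5% of higher genes, and among the 8 lower genes the TGA element was in 37.5%, the evening element in 0.0%, the G-box in 25%, and the mitochondrial dysfunction motif, AACGG and the site II element in 12.5% each. The cause of these shifts was not tested.

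No paired analysis was possible because the table holds group means and the recovered libraries carry no replicate numbers. Genes above about 10 CPM have no spread here, so a 2-fold difference of their means has no test, and genes under 1 CPM rest on few reads.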

Other observations

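Gene families read from the words of the deposited descriptions, chosen after their values were seen, added a few groups. Of 62 genes described as WRKY, 14 were called higher (22.6%, against 3.81% of all genes) and none lower (against 0.85%). Of 34 tested 17 rose and 2 fell, against 12.6% and 7.55% of all tested genes. WRKY8, a factor of pathogen and salt responses, went from a mean of 0.768 to 3.94 CPM. Of 19 genes described as FAD-binding Berberine, a family of secreted oxidoreductases, 7 were called higher (36.8%, against 3.81% of all genes). None was called lower, against 0.85% of all genes. AT1G26380 of this family rose from 0.537, 0.778 and 0.414 CPM to 5.82, 11.9 and 8.80 CPM, a log2 difference of 3.09 ± 0.28 (limma adjusted p = 4.5e-07).

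The SAUR family, small proteins of auxin-driven cell expansion, had more lower than higher members. Of 65 members 10 were called lower (15.4%, against 0.85% of all genes) and 4 higher (6.15%, against 3.81%). Of 52 tested 18 fell and 5 rose, against 7.55% and 12.6% of all tested genes. SAUR19 fell from 2.60, 3.24 and 2.62 CPM to 0.490, 0.747 and 0.643 CPM (-1.50 ± 0.19 on the log2 scale, adjusted p = 1.6e-05). AT1G56150, also described as SAUR, rose from a mean of 2.51 to 10.7 CPM. Many SAUR genes are close copies in tandem, so reads may be shared among them. Of 20 genes described as response regulator, 2 were called lower (10%, against 0.85% of all genes) and 1 higher (5%, against 3.81%). The higher gene was PRR9 of the clock. The lower ones were ARR6 and ARR7, repressors in cytokinin signalling. Their means went from 17 to 5.15 CPM and from 31.1 to 10.2 CPM, and none of the other members was called lower.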
